A study of Mus musculus with 8 samples.

Results

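A set of 30 genes of red cell precursors, leaving out the globins themselves, was followed in bulk RNA sequencing of newborn calvaria, which form the roof of the skull. They were chosen by name, and 29 of the 30 symbols were paired with 1 of the 49315 gene IDs in the count table; Ahsp was paired with none and was not analysed here. Of the 29, 27 passed the filter on low counts, and Trim58 and Icam4 did not. The tissue came from female C57BL6 mice aged 2 to 3 days, as 4 wild-type and 4 Girk3 knockout (Girk3-/-) replicates, with 1 library per replicate. Girk3 is the potassium channel subunit encoded by Kcnj9, and the title of the series calls the deletion global. The labels name neither the targeted exons nor the origin of the knockout line, nor say whether the animals were littermates. The title also states the question, how loss of Girk3 bears on bone mass.

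Red blood cells of newborn mice are made in liver, spleen and the marrow that is filling the bones. A progenitor responds to erythropoietin through its receptor, the factors GATA1, TAL1 and KLF1 switch on the red cell programme, and the precursor takes up iron through the transferrin receptor and turns it into heme in its mitochondria. Maturing cells then build a spectrin and ankyrin skeleton under the membrane, anchored to the anion exchanger band 3 and the Rh complex. In a piece of calvaria such RNA can come from marrow precursors and from blood, while some of these genes are also used by other cells.

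Library totals ran from 35392465 to 54290034 counts. Kcnj9 held 0, 0, 1 and 4 counts in the wild-type libraries and 2, 5, 7 and 9 in the knockout libraries, so the targeted gene was too low to check the labels, and knockout below means the libraries labelled so. Summed over 13 skeletal muscle genes, RNA of attached muscle stood at 2128, 1648, 13.4 and 1500.5 CPM in wild-type replicates 1 to 4 and 3010.4, 48.5, 163 and 781 CPM in knockout replicates 1 to 4, so wild-type replicate 3 and knockout replicates 2 and 3 were poor in muscle. Knockout replicate 4, the shallowest, detected 28520 genes and the other libraries 24545 to 25729. The 10 genes of bone-forming cells, Col1a1 and Runx2 among them, were all above the filter and summed to 169673 to 188212 CPM over the wild-type libraries and 147027 to 193252 CPM over the knockout ones. Levels below are in CPM, the counts of a gene per 1000000 counts of its library, with totals scaled by edgeR's TMM factors. A log2 change is knockout minus wild type, printed with its standard error (SE). A gene is called where the adjusted p of edgeR's quasi-likelihood test, Benjamini-Hochberg over all tested genes, is under 0.05.

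Among the 27 tested genes 1 was called. Tfrc, the transferrin receptor that brings iron into the cell, fell by 0.75 ± 0.122 on the log2 scale (SE, edgeR adjusted p = 0.0167). It held 112, 124, 144 and 121 CPM in wild-type replicates 1 to 4 and 65.8, 80.5, 90.4 and 61.5 CPM in knockout replicates 1 to 4. Every knockout library lay below every wild-type library, with a wild-type mean of 125 ± 13.6 CPM and a knockout mean of 74.5 ± 13.4 CPM (SD, n = 4 each). Over all 17743 tested genes 1.32% were called, and 0.874% were called lower, so 1 of 27 (3.7%) is a count of a single gene against that background. In bulk samples fewer cells of a type and less RNA per cell cannot be told apart. Whether red cell precursors or other cells of the calvaria held the Tfrc RNA was not tested. The call depended on 3 libraries, since leaving out wild-type replicate 2 gave an edgeR adjusted p of 0.0574, leaving out wild-type replicate 3 gave 0.0501 and leaving out knockout replicate 2 gave 0.0505. Its log2 change stayed between -0.85 and -0.66 whichever library was left out.

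The other 26 tested genes did not pass. Tfrc and Bpgm, 2 of 27, had an unadjusted p under 0.05, against 17.4% of all tested genes. DESeq2 and limma-voom each called 1, Tfrc. The groups did not overlap in 1 of 27, against 10.6% of all tested genes. A log2 change above 0 was seen in 21 of 27 (median 0.22), against 49.9% of all tested genes (median -0.00029). That direction rested on 1 library: without knockout replicate 2, 8 of 27 were above 0 and the median was -0.068. Without the 3 muscle-poor libraries 4 of 27 were above 0, with a median of -0.23. That fit left only replicates 1 and 4 in the knockout group. With the muscle level as a covariate 18 were above 0, with a median of 0.14.

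**Figure D1:**
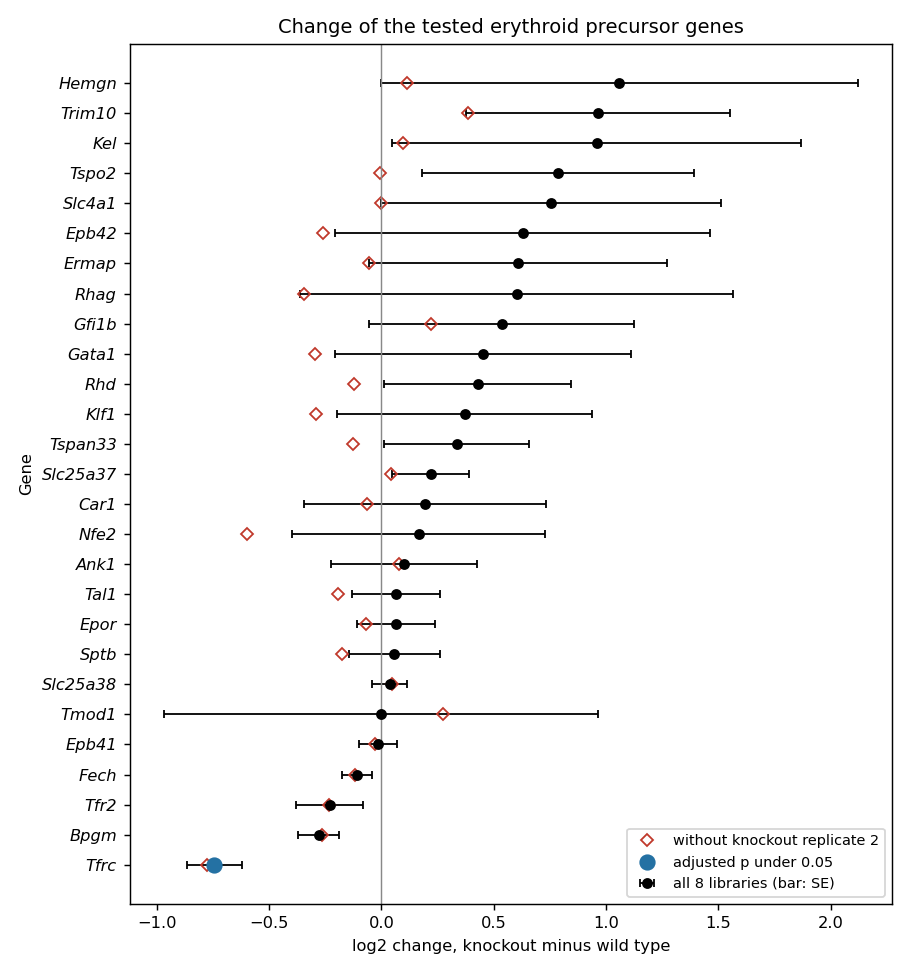
Log2 change, knockout minus wild type, of the 27 tested erythroid precursor genes, with all 8 libraries (filled points, bars are SE) and without knockout replicate 2 (open diamonds). Tfrc, at -0.75, is the called gene, and 21 genes lie above 0 with all libraries against 8 without knockout replicate 2.

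The larger feature of the set was a spread between libraries within the knockout group. In 14 of 27 genes (51.9%) knockout replicate 2 was the highest of the 8 libraries and knockout replicate 1 the lowest, a pattern noticed in these data, which 1.15% of all tested genes showed. The 14 were Slc4a1, Rhd, Tal1, Hemgn, Klf1, Ermap, Kel, Rhag, Nfe2, Tspan33, Trim10, Gata1, Epb42 and Tspo2. Their ratio of knockout replicate 2 to knockout replicate 1 ran from 2.09 for Tal1 to 46.2 for Rhag. Summed, these genes held 35.1, 38.7, 53 and 25.1 CPM in wild-type replicates 1 to 4 and 16.5, 117, 57.3 and 32.1 CPM in knockout replicates 1 to 4. Apart from knockout replicate 2, the highest sums were in knockout replicate 3 and wild-type replicate 3, so the 3 highest libraries were the 3 poor in muscle, and the lowest, knockout replicate 1, held the most muscle RNA. The choice of the 14 genes fixed knockout replicate 2 as highest and knockout replicate 1 as lowest. Only the order of the other libraries was free to follow muscle RNA or not. The part of muscle in this spread was not tested. The wild-type mean was 38 ± 11.6 CPM and the knockout mean 55.7 ± 44 CPM (SD, n = 4 each). Since the 14 genes were picked for being highest and lowest in 2 knockout libraries, the wide knockout SD of this sum follows from the choice.

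The log2 changes of these genes were all above 0 and imprecise. Among the 14 genes the log2 changes ran from 0.065 to 1.06, their standard errors from 0.197 to 1.06 on the log2 scale, and edgeR adjusted p from 0.438 to 0.912. Genes picked for both ends in the knockout group tend to have wide errors and high adjusted p. The choice bears on the sign too, so these values are no separate result. Slc25a38, Fech, Epb41, Bpgm and Tfrc, each with at least 564 counts in every library, were among the most precise. Their standard errors were 0.0779, 0.0677, 0.0845, 0.09 and 0.122. Slc25a37, with at least 1532 counts in every library, was less precise (0.171), so counts alone did not set the error. Tmod1 and Gfi1b, outside the shared order, were as imprecise as those in it (0.966 and 0.59). In 13 of 27 genes (48.1%) the highest library was at least 5 times the lowest, against 6.79% of all tested genes.

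**Figure D2:**
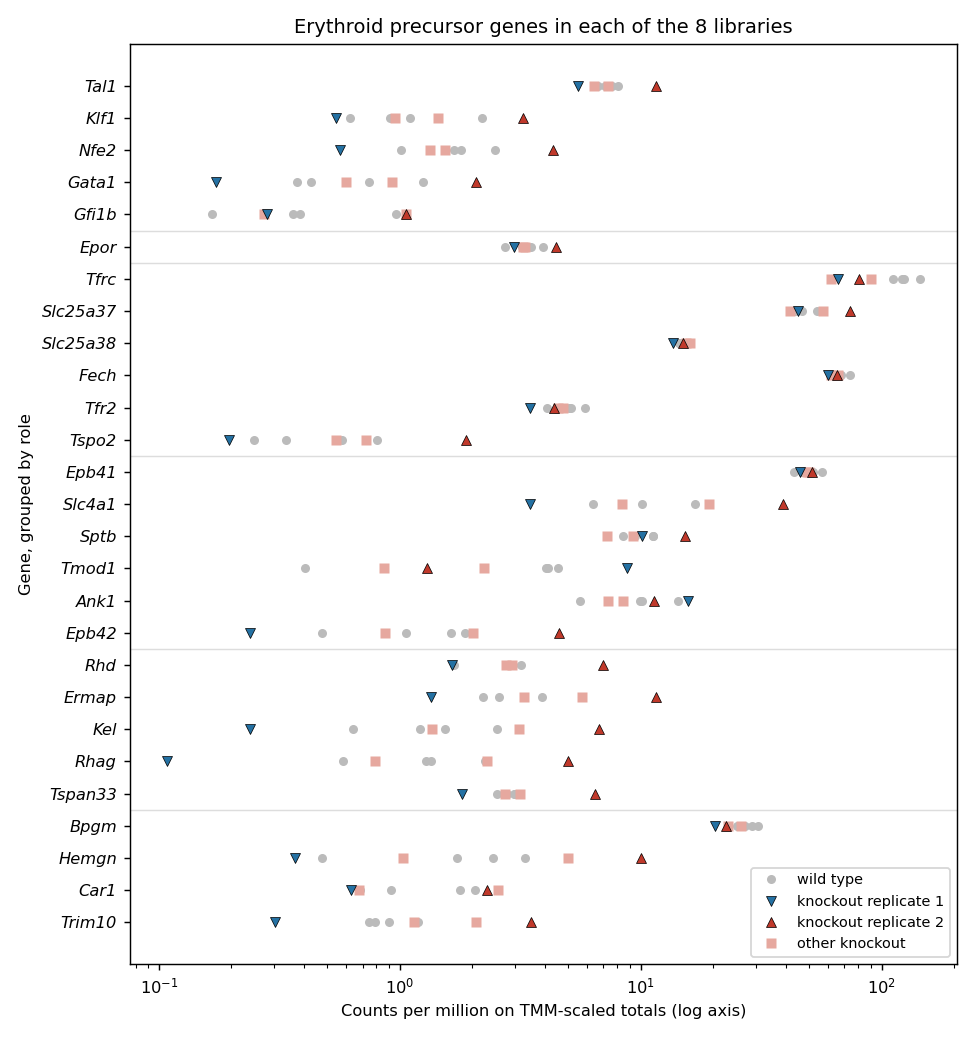
CPM (log axis) of the 27 tested genes in each library, grouped by role: transcription factors, the erythropoietin receptor, iron and heme, membrane skeleton, surface proteins, and cytoplasmic or nuclear proteins. Knockout replicate 2 (upward triangles) and knockout replicate 1 (downward triangles) are the ends of 14 rows, while Bpgm, Fech, Epb41 and Slc25a38 span at most a 1.5-fold range.

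Per kilobase of annotated exon, averaged over the 8 libraries, Tfrc was the highest gene of the set at 16.1 CPM per kilobase. Slc25a37 (8.4), Bpgm (7.11), Slc25a38 (5.38), Fech (4.73) and Epb41 (3.09) came next on that scale. Slc4a1, the band 3 gene, stood at 2.85 CPM per kilobase, and the other genes that red cell precursors use more narrowly were lower, down to 0.293 for Epb42 and 0.206 for Tspo2 among tested genes. Exon length here is the union over annotated transcripts, so a gene with many alternative exons, such as Ank1, is placed low.

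All 5 transcription factor genes had log2 changes above 0 and none was called in edgeR, DESeq2 or limma-voom (0 at an unadjusted p under 0.05). Gata1 (chrX:7959260-7978071, mm10), the factor that drives red cell and platelet lineages, held 0.427, 0.745, 1.25 and 0.373 CPM in wild-type replicates 1 to 4 and 0.173, 2.08, 0.926 and 0.598 CPM in knockout replicates 1 to 4. The genotypes overlapped, and the 2 ends of the range were both knockout libraries; its log2 change was 0.45 ± 0.658 (SE, edgeR adjusted p = 0.771). Klf1 (ENSMUSG00000054191, chr8:84901928-84905291), which activates adult beta globin and many membrane genes, held 1.1, 0.914, 2.19 and 0.621 CPM in wild-type replicates 1 to 4 and 0.541, 3.25, 1.45 and 0.952 CPM in knockout replicates 1 to 4. Wild-type replicate 3 was the highest wild-type library for this gene as for Gata1, and the log2 change was 0.37 ± 0.568 (SE, edgeR adjusted p = 0.783). Tal1, a helix-loop-helix partner of GATA1 that endothelium and stem cells also use, was the factor of highest level per kilobase. It held 6.66, 8.05, 7.58 and 7.12 CPM in wild-type replicates 1 to 4 and 5.5, 11.5, 7.28 and 6.42 CPM in knockout replicates 1 to 4, a narrower range, with a log2 change of 0.065 ± 0.197 (SE, edgeR adjusted p = 0.899). Nfe2, a globin and platelet gene regulator, held 1.8, 2.48, 1.68 and 1.01 CPM in wild-type replicates 1 to 4 and 0.563, 4.31, 1.54 and 1.33 CPM in knockout replicates 1 to 4, and its log2 change was 0.17 with all libraries and -0.60 without knockout replicate 2. Gfi1b, a transcriptional repressor that red cell and megakaryocyte lineages need, was lowest in wild-type replicate 4. It held 0.166 to 1.06 CPM over the 8 libraries, with a log2 change of 0.54 ± 0.59 (SE, edgeR adjusted p = 0.685).

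Of 12 further regulators of red cell genes, Zfpm1, Lmo2 and Myb among them, none was called in edgeR, DESeq2 or limma-voom and 3 had an unadjusted p under 0.05; 8 had a log2 change above 0 (median 0.054). E2f2, a cell cycle factor of dividing erythroblasts, had the smallest p of them. It held 7.63, 7.33, 7.47 and 7.23 CPM in wild-type replicates 1 to 4 and 7.68, 14.3, 10.5 and 8.65 CPM in knockout replicates 1 to 4. Each knockout library was above each wild-type library, though knockout replicate 1 only by a small margin, and the log2 change was 0.47 ± 0.165 (SE, edgeR adjusted p = 0.174). That list shared knockout replicate 2 as highest and knockout replicate 1 as lowest library in 2 of 12 genes.

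Promoter sequence was compared because the 14 genes above shared their order at the 2 ends. The sequences shown cover the 250 bases before the RefSeq start (build GRCm38.p6), 5′ to 3′ on the gene's strand, with GATA motif matches in capitals. The motif was searched as AGATAA, as TGATAA, as AGATAG and as TGATAG on both strands, so TTATCA is TGATAA and TTATCT is AGATAA read on the other strand. Windows are shown for 4 genes of the shared order, which do not represent all 14. These are Klf1, a factor, Rhag, of the Rh complex, Kel, a blood group protein, and Hemgn, a nuclear protein. Tfrc is set beside them as the called gene without that order. The windows lie at chr8:84901732-84901981 (plus strand), chr17:40810899-40811148 (plus strand), chr6:41704326-41704575 (minus strand), chr4:46404184-46404433 (minus strand) and chr16:32608646-32608895 (plus strand).
Klf1: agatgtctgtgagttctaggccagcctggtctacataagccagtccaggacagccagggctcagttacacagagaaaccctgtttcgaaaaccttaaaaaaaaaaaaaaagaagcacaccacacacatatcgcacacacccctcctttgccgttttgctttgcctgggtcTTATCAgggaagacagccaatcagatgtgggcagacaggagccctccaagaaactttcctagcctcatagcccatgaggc
Rhag: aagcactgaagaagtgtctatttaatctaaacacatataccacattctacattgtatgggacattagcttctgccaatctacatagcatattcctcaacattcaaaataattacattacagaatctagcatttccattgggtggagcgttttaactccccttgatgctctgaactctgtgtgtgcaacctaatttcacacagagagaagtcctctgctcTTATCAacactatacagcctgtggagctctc
Kel: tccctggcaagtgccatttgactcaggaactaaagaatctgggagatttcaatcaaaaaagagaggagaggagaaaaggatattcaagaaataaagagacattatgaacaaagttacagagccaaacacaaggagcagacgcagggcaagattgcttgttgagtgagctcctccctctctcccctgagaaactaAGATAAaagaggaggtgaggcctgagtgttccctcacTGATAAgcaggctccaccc
Hemgn: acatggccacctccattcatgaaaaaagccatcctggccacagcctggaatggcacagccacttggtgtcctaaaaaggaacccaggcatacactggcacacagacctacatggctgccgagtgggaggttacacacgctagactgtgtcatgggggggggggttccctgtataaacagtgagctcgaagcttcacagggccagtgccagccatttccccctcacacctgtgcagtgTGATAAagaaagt
Tfrc: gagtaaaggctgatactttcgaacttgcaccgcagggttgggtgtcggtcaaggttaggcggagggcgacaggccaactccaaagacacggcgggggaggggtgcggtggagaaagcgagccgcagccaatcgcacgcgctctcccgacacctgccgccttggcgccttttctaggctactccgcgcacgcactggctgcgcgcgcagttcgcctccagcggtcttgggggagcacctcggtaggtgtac

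A GATA match began 80 bases before the start in Klf1, 31 in Rhag and 13 in Hemgn, and Kel held a pair of matches, at 56 and 19 bases. The Tfrc window shown held none. RefSeq windows were found for 23 of the 30 genes (29 windows, since Tal1, Epb41, Tfr2 and Tfrc have several), and Slc4a1, Ank1, Car1, Fech, Nfe2, Slc25a37 and Ahsp had none. The motif was in 15 of these 29 windows (51.7%), against 26.5% of all 32851 windows of that length. Of the 13 windows of the genes with the shared order it was in 9 (69.2%). The members were chosen as red cell genes and the 14 were picked from these data, so this share is no test of the shared order. The windows of Gata1, Tspan33, Tspo2 and 1 start of Tal1 held none. In Epb42 and Trim10 the match lay 226 and 163 bases before the start. Among genes outside the 14, windows of Epor, Gfi1b, Icam4, Trim58 and 1 start each of Epb41 and Tfr2 held the motif. A CACCC motif of the kind KLF1 binds, searched as CCACACCC, CCACGCCC, CCCCACCC and CCCCGCCC on both strands, was in 11 of 29 windows (37.9%), against 27.4% of all windows; the last of these strings is also the core of a GC box. Both motifs were in 4 windows (13.8% against 4.31%), those of Epor, of Icam4 and of 1 start each of Tfr2 and Epb41. These are matches of letters, and no binding was measured.

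Epor, the erythropoietin receptor, was even across the libraries. It held 2.72, 3.51, 3.93 and 3.21 CPM in wild-type replicates 1 to 4 and 2.97, 4.45, 3.23 and 3.32 CPM in knockout replicates 1 to 4, a highest to lowest ratio of 1.64. The groups overlapped and the log2 change was 0.064 ± 0.173 (SE, edgeR adjusted p = 0.885). Among 10 genes of the pathway below this receptor, 1 was called, 4 had an unadjusted p under 0.05, and 6 had a log2 change below 0 (median -0.043). Socs3, a feedback inhibitor that many cytokine receptors induce, held 36.2, 31.1, 39.5 and 34.5 CPM in wild-type replicates 1 to 4 and 18.9, 18.9, 22.8 and 24.1 CPM in knockout replicates 1 to 4. All 4 knockout libraries were below all 4 wild-type libraries, and it fell by 0.74 ± 0.101 on the log2 scale (SE, edgeR adjusted p = 0.00561). The call held whichever single library was left out (adjusted p 0.00347 to 0.0259) and was lost without the 3 muscle-poor libraries (adjusted p = 0.199). Cish, another feedback inhibitor induced through STAT5, was at a log2 change of 0.26 ± 0.115 (SE, edgeR adjusted p = 0.277).

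Genes of iron uptake and the mitochondrial steps of heme synthesis split 3 above 0 and 3 below, Tfrc among the latter. Tfrc (ENSMUSG00000022797, chr16:32608920-32632794, plus strand, mm10) did not share the order of the precursor genes: its highest library was wild-type replicate 3 and its lowest knockout replicate 4. Tfr2, the second transferrin receptor, which red cell precursors and liver use to sense iron, held 5.02, 5.15, 5.86 and 4.08 CPM in wild-type replicates 1 to 4 and 3.46, 4.38, 4.52 and 4.76 CPM in knockout replicates 1 to 4. The groups overlapped, with knockout replicate 1 the lowest and wild-type replicate 3 the highest library, and the log2 change was -0.23 ± 0.151 (SE, edgeR adjusted p = 0.456). Slc25a37 (mitoferrin), which imports iron into mitochondria, held 43.5, 42.8, 54 and 46.8 CPM in wild-type replicates 1 to 4 and 44.9, 73.7, 57.3 and 41.7 CPM in knockout replicates 1 to 4. It was highest in knockout replicate 2 and lowest in knockout replicate 4, and the log2 change was 0.22 ± 0.171 (SE, edgeR adjusted p = 0.547). Slc25a38, the mitochondrial glycine carrier that feeds the first step of heme synthesis, held 15.1, 14.5, 14.4 and 14.4 CPM in wild-type replicates 1 to 4 and 13.7, 15, 16 and 15.3 CPM in knockout replicates 1 to 4. It was the most even tested gene of the set, with a ratio of 1.17 between highest and lowest and a log2 change of 0.037 ± 0.0779 (SE, edgeR adjusted p = 0.854). Fech, ferrochelatase, which puts iron into the ring, held 64.1, 66.3, 74 and 67.6 CPM in wild-type replicates 1 to 4 and 59.9, 65.1, 65.6 and 61.5 CPM in knockout replicates 1 to 4. Wild-type replicate 3 was highest and knockout replicate 1 lowest, the groups overlapped, and the log2 change was -0.11 ± 0.0677 (SE, edgeR adjusted p = 0.43). Tspo2, an erythroid relative of the translocator protein, was low at 0.195 to 1.88 CPM and had the shared order, with a log2 change of 0.79 ± 0.608 (SE, edgeR adjusted p = 0.539).

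Of 15 other genes of iron and heme transport none was called in edgeR or limma-voom, 5 had an unadjusted p under 0.05 and DESeq2 called 4 lower; 11 had a log2 change below 0 (median -0.099). Smallest in p were Fth1, the ferritin heavy chain that stores iron, and Snx3, a sorting protein of receptor recycling. Fth1 had a wild-type mean of 507 ± 48 CPM and a knockout mean of 384 ± 36 CPM (SD, n = 4 each) and a log2 change of -0.40 ± 0.0904 (SE, edgeR adjusted p = 0.052), and that of Snx3 was -0.29 ± 0.072 (SE, edgeR adjusted p = 0.0694). Among 7 heme synthesis genes none was called in edgeR or limma-voom, 1 had an unadjusted p under 0.05 and DESeq2 called 1, Ppox, lower. Ppox lies at chr1:171275990-171281186 (mm10), on the chromosome of Kcnj9, and the part of the targeted region in its level was not tested. Alas2, the erythroid enzyme of the first step, held 25.2, 12.5, 26.9 and 16.2 CPM in wild-type replicates 1 to 4 and 10.2, 20.2, 11.4 and 14.3 CPM in knockout replicates 1 to 4. Its highest libraries were wild-type replicates 1 and 3, and its log2 change was -0.53 ± 0.314 (SE, edgeR adjusted p = 0.437).

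**Figure D3:**
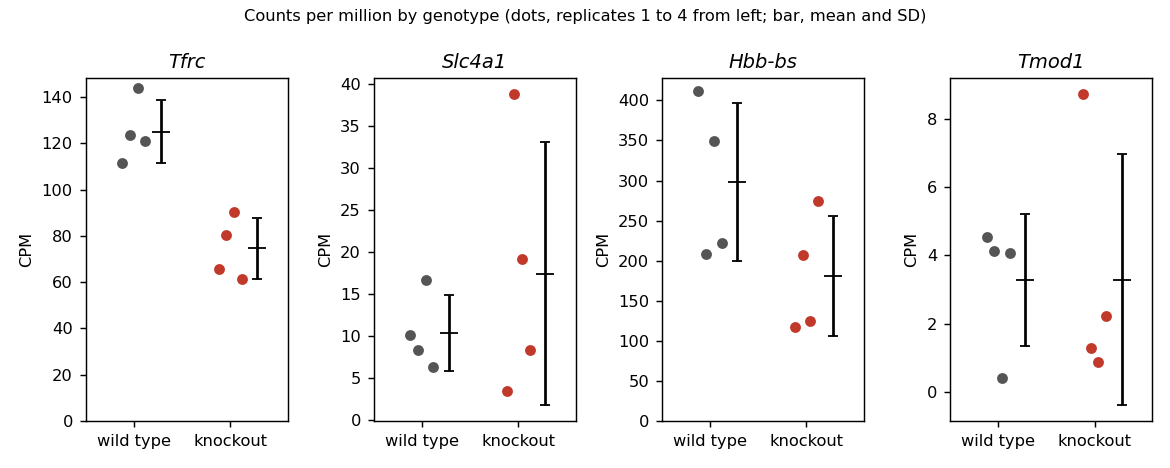
CPM of Tfrc, Slc4a1, Hbb-bs and Tmod1 in the 4 libraries of each genotype (dots, replicates 1 to 4 from left to right) with mean and SD. Tfrc separates the genotypes, from 61.5 to 90.4 CPM in knockout against 112 to 144 CPM in wild type, while the genotypes overlap for the other 3 genes.

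Among the 6 genes of the membrane skeleton none was called in edgeR, DESeq2 or limma-voom (0 at an unadjusted p under 0.05), and 4 had a log2 change above 0. Slc4a1, the anion exchanger band 3 that anchors the skeleton, held 10.1, 8.39, 16.7 and 6.34 CPM in wild-type replicates 1 to 4 and 3.49, 38.8, 19.2 and 8.32 CPM in knockout replicates 1 to 4. Knockout replicate 2 was 11.1 times knockout replicate 1, and all 4 wild-type libraries lay between them; the log2 change was 0.75 ± 0.758 (SE, edgeR adjusted p = 0.665) and -0.00092 without knockout replicate 2. Epb42, the protein 4.2 that binds band 3, followed it at a lower level, from 0.238 CPM in knockout replicate 1 to 4.56 CPM in knockout replicate 2, with 0.476 to 1.86 CPM in wild type and a log2 change of 0.63 ± 0.836 (SE, edgeR adjusted p = 0.75). Epb41, protein 4.1, which many tissues make, held 46.8, 43.2, 56.3 and 51.8 CPM in wild-type replicates 1 to 4 and 45.7, 51.1, 49.2 and 49.9 CPM in knockout replicates 1 to 4. All knockout values lay within the wild-type range, and the log2 change was -0.016 ± 0.0845 (SE, edgeR adjusted p = 0.943), above 0 with upper-quartile factors or library totals. Sptb, the erythroid beta spectrin, ran from 7.24 CPM in knockout replicate 4 to 15.3 CPM in knockout replicate 2, with a log2 change of 0.058 ± 0.202 (SE, edgeR adjusted p = 0.915).

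Tmod1 and Ank1 had another order. Tmod1, which caps actin filaments in red cells and in striated muscle, held 4.54, 4.14, 0.402 and 4.06 CPM in wild-type replicates 1 to 4 and 8.74, 1.29, 0.859 and 2.23 CPM in knockout replicates 1 to 4. Ank1, the erythroid ankyrin that muscle also uses in a small form, held 14.2, 10.1, 5.59 and 9.96 CPM in wild-type replicates 1 to 4 and 15.7, 11.3, 7.34 and 8.4 CPM in knockout replicates 1 to 4. Both were highest in knockout replicate 1 and lowest in wild-type replicate 3, the libraries with the most and the least skeletal muscle RNA at 3010.4 and 13.4 summed CPM. The part of muscle in these values was not tested beyond the fit with muscle as a covariate, in which the log2 change of Tmod1 was 0.27 (edgeR adjusted p = 0.684). With all libraries and no covariate the log2 changes were -0.0011 ± 0.966 (SE, edgeR adjusted p = 1) for Tmod1 and 0.10 ± 0.326 (SE, edgeR adjusted p = 0.908) for Ank1. Of the Tmod1 exon bases 32.6% overlap those of Tstd2 on the opposite strand, a gene with a mean of 785 counts per library, and 6.37% of those of Ank1 overlap Gm15816, so these levels are less certain where reads were not counted by strand.

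Of 9 further red cell membrane genes none was called in edgeR, DESeq2 or limma-voom, 3 had an unadjusted p under 0.05, 7 had a log2 change above 0 (median 0.23) and 2 had knockout replicate 2 highest and knockout replicate 1 lowest. Smallest in p was Slc43a1, an amino acid transporter, which held 28.5, 28, 30.1 and 27.1 CPM in wild-type replicates 1 to 4 and 30.8, 36.8, 35.1 and 31.1 CPM in knockout replicates 1 to 4 with a log2 change of 0.23 ± 0.0773 (SE, edgeR adjusted p = 0.155). Next came Mpp1, a scaffold protein that binds protein 4.1, which held 67.6, 73.1, 81.1 and 72.4 CPM in wild-type replicates 1 to 4 and 60.2, 67.4, 66 and 58.2 CPM in knockout replicates 1 to 4 with a log2 change of -0.22 ± 0.0763 (SE, edgeR adjusted p = 0.166). The genotypes did not overlap for these genes, the knockout libraries being above wild type for Slc43a1 and below it for Mpp1, with narrow gaps. None of the matched genes of the set (0 of 29) lies within 5 Mb of Kcnj9. Genes of the other lists were not checked for this distance. Some of them, Ppox and the mast cell gene Fcer1a among them, lie on the chromosome of Kcnj9.

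The surface genes had the shared order in 5 of 5 tested members, and none was called in edgeR, DESeq2 or limma-voom (0 at an unadjusted p under 0.05). Rhd, the Rh polypeptide, had the highest level per kilobase of them and held 2.88, 3.17, 2.95 and 1.68 CPM in wild-type replicates 1 to 4 and 1.65, 6.99, 2.91 and 2.75 CPM in knockout replicates 1 to 4. Its partner Rhag, the Rh-associated ammonium channel, held 1.28, 1.35, 2.26 and 0.58 CPM in wild-type replicates 1 to 4 and 0.108, 5, 2.3 and 0.789 CPM in knockout replicates 1 to 4. The value in knockout replicate 1 rested on 5 counts, and the genotypes overlapped for both genes, with log2 changes of 0.43 ± 0.417 (SE, edgeR adjusted p = 0.644) for Rhd and 0.60 ± 0.965 (SE, edgeR adjusted p = 0.798) for Rhag. Kel, the endopeptidase that carries the Kell antigen, held 1.21, 1.54, 2.53 and 0.642 CPM in wild-type replicates 1 to 4 and 0.238, 6.71, 3.12 and 1.36 CPM in knockout replicates 1 to 4. Knockout replicates 2 and 3 were above the wild-type range and knockout replicate 1 below it, with a log2 change of 0.96 ± 0.91 (SE, edgeR adjusted p = 0.642). Ermap, an immunoglobulin-like membrane protein of erythroid cells, was at 1.34 CPM in knockout replicate 1 and 11.5 CPM in knockout replicate 2, with 2.22 to 5.7 CPM in wild type and a log2 change of 0.61 ± 0.663 (SE, edgeR adjusted p = 0.69). Tspan33, a tetraspanin, was more even, at 2.53 to 2.99 CPM in wild type and 1.82 to 6.47 CPM in knockout, with a log2 change of 0.34 ± 0.324 (SE, edgeR adjusted p = 0.638). Icam4, the adhesion molecule of erythroblasts, had 0 counts in all 8 libraries, which allows up to 3 counts (at most 0.0848 CPM) in a library. All of its exon bases (100%) overlap the gene model Gm47079 on the opposite strand, with a mean of 2.75 counts, so how the counting treated reads of this overlap bears on the 0.

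Bpgm and Hemgn stood for the contrast among the cytoplasmic and nuclear genes. Bpgm, which makes the bisphosphoglycerate that lowers the oxygen affinity of haemoglobin, held 29, 27.2, 30.6 and 25.1 CPM in wild-type replicates 1 to 4 and 20.4, 22.6, 23.1 and 26.1 CPM in knockout replicates 1 to 4. Knockout replicates 1, 2 and 3 lay below the wild-type range and knockout replicate 4 within it, and its log2 change was -0.28 ± 0.09 (SE, edgeR adjusted p = 0.15). Hemgn, a nuclear protein of blood progenitors, held 1.73, 2.43, 3.31 and 0.476 CPM in wild-type replicates 1 to 4 and 0.368, 10.04, 4.97 and 1.03 CPM in knockout replicates 1 to 4, a 27.3-fold range between 2 knockout libraries. Its log2 change was 1.06 ± 1.06 (SE, edgeR adjusted p = 0.663). Trim10, a RING finger protein of terminal maturation, held 0.9, 0.745, 1.18 and 0.787 CPM in wild-type replicates 1 to 4 and 0.303, 3.49, 2.08 and 1.14 CPM in knockout replicates 1 to 4. Wild-type levels were close together, knockout replicates 2 and 3 lay above them and knockout replicate 1 below, with a log2 change of 0.96 ± 0.589 (SE, edgeR adjusted p = 0.438). Car1, a carbonic anhydrase, was high in knockout replicates 2 and 3 and wild-type replicates 2 and 3, and ran from 0.628 to 2.55 CPM, with a log2 change of 0.19 ± 0.539 (SE, edgeR adjusted p = 0.891). Trim58, a ubiquitin ligase of late erythroblasts, was below the count filter with 3, 1, 7 and 6 counts in wild type and 0, 23, 20 and 16 in knockout. On library totals that was a wild-type mean of 0.0916 ± 0.0586 CPM and a knockout mean of 0.335 ± 0.224 CPM (SD, n = 4 each; two-sided exact permutation p = 0.143, where 0.0286 is the smallest that 4 against 4 allows). Leaving out 1 library at a time gave p from 0.0286 to 0.257, the lowest of them without knockout replicate 1, the library that held no count.

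Globin RNA had another order over the libraries than the 14 precursor genes. Hbb-bs, an adult beta globin, held 412, 208, 349 and 222 CPM in wild-type replicates 1 to 4 and 117, 207, 124 and 274 CPM in knockout replicates 1 to 4, and Hba-a1, an alpha globin, held 257, 145, 237 and 158 CPM in wild-type replicates 1 to 4 and 86.8, 153, 90.3 and 192 CPM in knockout replicates 1 to 4. For both genes wild-type replicate 1 was highest and knockout replicate 1 lowest, and knockout replicate 2 lay near the lower wild-type libraries. Log2 changes were -0.72 ± 0.369 (SE, edgeR adjusted p = 0.371) for Hbb-bs, -0.53 ± 0.288 (SE, edgeR adjusted p = 0.398) for Hbb-bt, -0.61 ± 0.333 (SE, edgeR adjusted p = 0.399) for Hba-a1 and -1.02 ± 0.263 (SE, edgeR adjusted p = 0.125) for Hba-a2. None of these 4 was called in edgeR or limma-voom and 1, Hba-a2, had an unadjusted p under 0.05; DESeq2 called Hba-a2 lower (adjusted p = 0.0131). Reads of the near-identical alpha globin copies, and of the beta globin copies, can be shared. The embryonic globin Hbb-y had 0 counts in all libraries, and Hbb-bh1 and Hba-x had at most 2 in any. Set against the 14 precursor genes, the summed CPM of the 4 globins was 23, 11.5, 13.4 and 18.3 times theirs in wild-type replicates 1 to 4 and 15.1, 3.79, 4.55 and 16.9 times in knockout replicates 1 to 4. The ratio was lowest in knockout replicate 2, which in part restates the choice of the 14 genes, and next lowest in knockout replicate 3.

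Genes of other marrow cells were read for the same order. Of 10 neutrophil genes 8 had knockout replicate 2 highest and knockout replicate 1 lowest, and of 10 B lymphocyte precursor genes 6 did, against 0 of 4 globins and 1.15% of all tested genes. Without Mmp9, which osteoclasts also make, the neutrophil genes summed to 44.1, 65.3, 52.1 and 21.6 CPM in wild-type replicates 1 to 4 and 4.48, 85.1, 55.3 and 40.8 CPM in knockout replicates 1 to 4. Their lowest and highest libraries were those of the precursor genes, and wild-type replicate 2 was second. Besides Mmp9, Retnlg lacked the order, with wild-type replicate 3 its highest library. The 10 B cell genes summed to 60.6, 58.1, 55 and 49.2 CPM in wild-type replicates 1 to 4 and 55.5, 77.6, 65.6 and 44.4 CPM in knockout replicates 1 to 4, with knockout replicate 4 lowest. Ebf1, which mesenchymal cells also use, and Blnk, which macrophages also use, did not have the order. Rag1 and Vpreb1 did not have it either: both were highest in knockout replicate 2, but lowest in wild-type replicate 4 and knockout replicate 4. Ebf1 and Blnk were left out of a further sum after their values were seen. Without Ebf1 and Blnk the sums were 6.16, 6.97, 7.96 and 4.16 CPM in wild-type replicates 1 to 4 and 2.23, 16.4, 8.02 and 5.33 CPM in knockout replicates 1 to 4, and knockout replicate 1 was lowest. The part of these cells in the precursor levels was not tested. Neither list had a call in edgeR or limma-voom (1 neutrophil and 1 B cell gene at an unadjusted p under 0.05; DESeq2 called Mmp9 lower and no B cell gene).

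**Figure D4:**
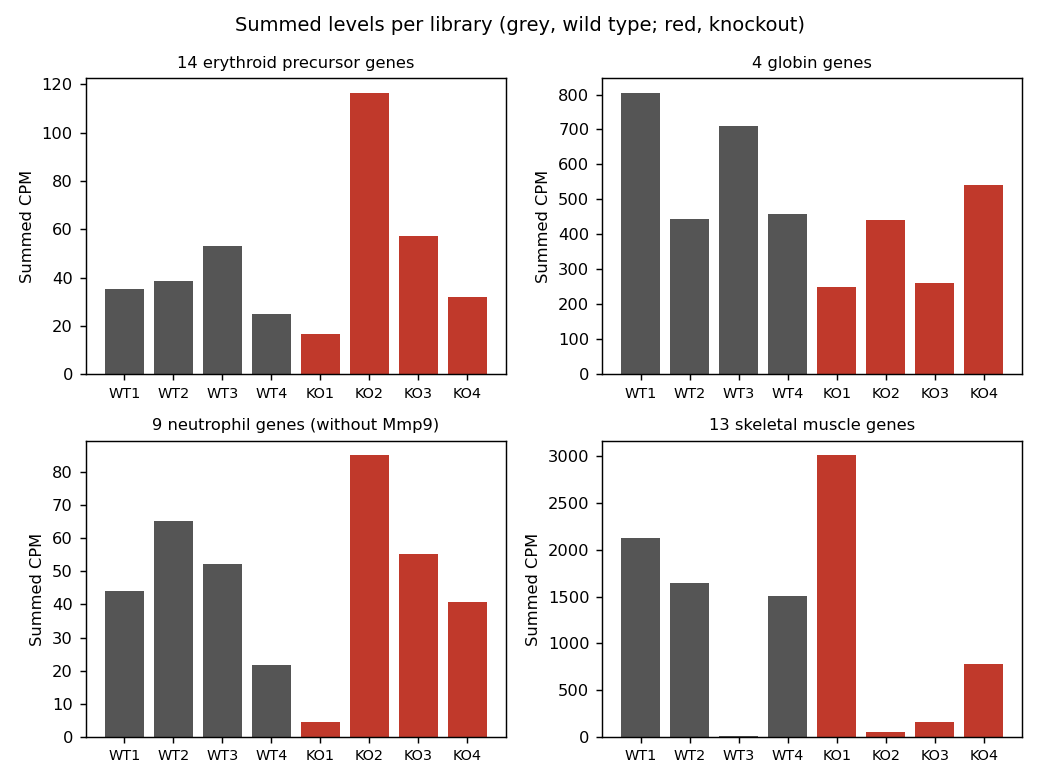
Summed CPM in each library for the 14 precursor genes with the shared order, 4 globins, 9 neutrophil genes and 13 skeletal muscle genes; bars start at 0. Knockout replicate 2 is the tallest bar for precursor and neutrophil genes, at 117 and 85.1 CPM, and wild-type replicate 1 for globins, at 806 CPM.

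RNA of lineages that share Gata1, Tal1, Nfe2 and Gfi1b with red cells was read as well. Megakaryocyte and platelet genes passed the filter in 6 of 10 cases and summed to 192 to 284 CPM over the wild-type libraries and 168 to 205 CPM over the knockout ones, most of it Itgb3, which osteoclasts also use. None was called in edgeR or limma-voom and 2 had an unadjusted p under 0.05; DESeq2 called Itgb3 lower and Ppbp higher. Ppbp, a platelet chemokine, held 0.562, 0.529, 0.671 and 0.352 CPM in wild-type replicates 1 to 4 and 0.455, 4.43, 1.22 and 1.44 CPM in knockout replicates 1 to 4. Mast cell genes (5 of 8 above the filter) summed to 18.3 to 45.8 CPM over the wild-type libraries and 7.68 to 29.8 CPM over the knockout ones. Knockout replicate 2 was the lowest library. Of these tested genes 0 were called in edgeR, DESeq2 or limma-voom (0 at an unadjusted p under 0.05). Below the filter, Tpsab1 held 159, 8, 153 and 100 counts in wild type and 10, 5, 5 and 1 in knockout (exact permutation p = 0.0571). Fcer1a held 9, 6, 2 and 1 counts in wild type and 0 in each knockout library (exact permutation p = 0.0286, the smallest possible). For Ms4a2, also below the filter, the exact permutation p was 0.143. Stem and progenitor genes (7 of 8) summed to 164 to 178 CPM over the wild-type libraries and 167 to 194 CPM over the knockout ones, mostly Cd34, a gene of endothelium too; 0 were called in edgeR, DESeq2 or limma-voom and 1 had an unadjusted p under 0.05. No gene of these 3 lists was at 0 in every library, and their part in the levels of the shared factors was not tested.

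Macrophages of the kind that nurse erythroblasts were followed with 10 genes, all above the filter, which summed to 368 to 398 CPM over the wild-type libraries and 337 to 376 CPM over the knockout ones. Maf, Mertk and Vcam1 had the highest levels of them. Maf alone had a wild-type mean of 123 CPM and a knockout mean of 137 CPM. Whether macrophages or other cells held this RNA was not tested. None was called in edgeR or limma-voom, 6 had an unadjusted p under 0.05 and DESeq2 called 1, Adgre1, lower; 7 had a log2 change below 0 (median -0.25). The log2 change was -0.57 ± 0.158 (SE, edgeR adjusted p = 0.115) for Adgre1, the macrophage antigen detected by the F4/80 antibody, and -0.25 ± 0.0877 (SE, edgeR adjusted p = 0.175) for Vcam1, which binds erythroblasts. Mertk, also at an unadjusted p under 0.05, went the other way, with a log2 change of 0.17 ± 0.0675 (SE, edgeR adjusted p = 0.23). All 10 proliferation genes had a log2 change above 0 (median 0.17), with 0 called in edgeR, DESeq2 or limma-voom and 1 at an unadjusted p under 0.05. They summed to 632 to 711 CPM over the wild-type libraries and 681 to 847 CPM over the knockout ones, highest in knockout replicates 2 and 3. Endothelial genes had a median log2 change of -0.11 and brain genes of -0.35, with 0 called in either list by edgeR, DESeq2 or limma-voom (0 and 1 at an unadjusted p under 0.05). The brain genes summed to 56.6, 25.5, 22.8 and 24.6 CPM in wild-type replicates 1 to 4. In knockout replicates 1 to 4 they summed to 25.4, 25.4, 36.1 and 29.6 CPM, so wild-type replicate 1 stood highest. The muscle list, at a median of -0.45, had 0 called in edgeR, DESeq2 or limma-voom and 0 at an unadjusted p under 0.05. Bglap, the osteocalcin gene, was the 1 called gene of 10 bone genes and fell by 0.48 ± 0.101 on the log2 scale (SE, edgeR adjusted p = 0.0383). Its reads may be shared with the near-identical Bglap2, and it missed the threshold when replicate 1, 2 or 3 of either genotype was left out, at adjusted p up to 0.127.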

How the data were processed

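The authors deposited raw counts, 1 whole number per gene ID and library, for 8 libraries of newborn calvaria. The submitters' processing notes name bcl2fastq 2.17, STAR 2.5.2b, featureCounts of Subread 1.5.2 and the build mm10; for annotation release, strand setting and shared reads the entry is: not given in the sources used here. Symbols, positions and exon lengths came from GENCODE mouse release M21 (GRCm38/mm10), for 48970 of 49315 IDs.

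Genes were kept with edgeR's filterByExpr (minimum count 10, minimum total 15), which left 17743 genes holding 99.9% of counts; TMM factors ran from 0.972 to 1.04. Genotypes were compared with the two-sided quasi-likelihood test of edgeR 4.0.16 (R 4.3.3, robust) and Benjamini-Hochberg adjustment over all tested genes. DESeq2 1.42.0, limma-voom (limma 3.58.1), other scalings, filters and covariates, a block for the replicate number, and fits without 1 library or without the 3 muscle-poor ones were alternatives. A single count was at most 0.0283 CPM and 3 counts at most 0.0848 CPM; these floors are for counting error alone, as PCR copies of a molecule cannot be recognised without identifiers. Tested on simulated data of this comparison (17499 genes), the fit recovered 30 of 56 genes given a 1.5-fold change, 52 of 75 given 2-fold and 58 of 69 given 4-fold; 9 unchanged genes were called.

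The genes and lists were chosen with earlier results of these data known, and some further red cell genes are not reported here. Named genes were Hba-a1, Hba-a2, Hbb-bs, Hbb-bt, Alas2, called genes of the lists, up to 2 of smallest p per list, and, with values per library, the 4 members of smallest p, the 4 of highest level per kilobase and the highest of each role. Slc4a1, Gata1, Klf1, Nfe2, Rhag, Kel, Hemgn, Tmod1, Ank1, Tfr2, Cish and Mmp9 were also chosen, or given per library, after their values were seen, as was the order with knockout replicate 2 highest and knockout replicate 1 lowest. The same holds for naming Ebf1, Blnk, Rag1, Vpreb1, Retnlg, Tpsab1, Fcer1a, Ms4a2, Maf and Mertk. It holds also for the sums without Mmp9 or without Ebf1 and Blnk. Labels do not say that replicates came from separate litters, so p-values measure the spread between these samples. Figures used matplotlib 3.10.9.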

Additional observations from a re-analysis of the deposited data

Results flagged for a closer look

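For each gene and genotype the 4 libraries were searched for 1 that stood far outside the rest. This was so in 3 of 78 such groups, and chance flags about 1 in 20, here 3.9. For Slc25a38, wild-type replicate 1 stood at 15.1 CPM while the remaining wild-type libraries held 14.4 to 14.5. For Tmod1, wild-type replicate 3 stood at 0.402 CPM while the remaining wild-type libraries held 4.06 to 4.54. For Trim58, knockout replicate 1 stood at 0 CPM while the remaining knockout libraries held 0.424 to 0.463.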

How the results depend on the processing

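The Tfrc call was kept under each of the other 13 settings that did not leave out a single library, with adjusted p from 1.5e-06 (DESeq2) to 0.0297 (without the 3 muscle-poor libraries). Leaving out single libraries gave 0 or 1 called members, 57 to 608 called genes over the table and member medians from -0.068 to 0.47. The count of called genes was 355 with no filter, 572 at a threshold of 0.1, 126 with the replicate number as a block, 952 in DESeq2 and 8 without the 3 muscle-poor libraries, against 234. With library totals 46.7% of calls were lower, against 66.2%, and 82.5% were with the block, 56.6% in DESeq2. The replicate block changed no member's call. Deviations of same-numbered libraries from their group means correlated at 0.255, -0.179, 0.34 and -0.005 (across genes). No wild-type library correlated best with the knockout library of its own number. Such correlations cannot exclude a shared litter or batch behind the numbers, on which the labels are silent. Log2 changes that turned sign, of genes not called, were as follows. RLE factors gave Tmod1 0.00743. Upper-quartile factors gave Epb41 0.0036 and Tmod1 0.017. Library totals gave Epb41 0.038 and Tmod1 0.025. The filter of 1 CPM in 4 libraries gave Tmod1 0.00701. The replicate block gave Nfe2 -0.091. The muscle covariate gave Car1 -0.0054, Tmod1 0.27, Rhag -0.00836, Nfe2 -0.12 and Tal1 -0.00172. DESeq2 gave Tmod1 0.00748. In limma-voom they were Rhag -0.15 and Nfe2 -0.055. Without the 3 muscle-poor libraries they were Car1 -0.77, Hemgn -1.15, Trim10 -0.18, Slc25a37 -0.028, Slc25a38 -0.00925, Tspo2 -0.076, Epb41 0.022, Epb42 -0.94, Slc4a1 -0.49, Sptb -0.16, Tmod1 0.39, Ermap -0.33, Kel -0.51, Rhag -1.28, Rhd -0.23, Tspan33 -0.28, Gata1 -0.43, Gfi1b -0.12, Klf1 -0.23, Nfe2 -0.90 and Tal1 -0.28. Over single left-out libraries the ranges were -0.14 to 0.32 for Ank1, -0.15 to 0.47 for Car1, -0.078 to 0.058 for Epb41, -0.26 to 1.00 for Epb42, -0.068 to 0.16 for Epor, -0.056 to 0.93 for Ermap, -0.30 to 0.90 for Gata1, -0.29 to 0.84 for Klf1, -0.60 to 0.47 for Nfe2, -0.34 to 1.00 for Rhag, -0.12 to 0.67 for Rhd, -0.000919 to 1.10 for Slc4a1, -0.18 to 0.20 for Sptb, -0.19 to 0.20 for Tal1, -1.18 to 0.32 for Tmod1, -0.13 to 0.55 for Tspan33 and -0.00661 to 1.14 for Tspo2. Calls of other genes that changed were those of Bglap (lost with library totals, the block, limma-voom and without the 3 muscle-poor libraries) and Hba-a2 (gained in DESeq2), besides those given above. The cause was not tested. Depth limits Rhag, Gata1, Gfi1b, Tspo2, Trim58 and Icam4, whose lowest libraries held 0 to 9 counts.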
